A study of Mus musculus with 6 samples.

Results

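The genes described here encode the receptors through which myeloid progenitors sense M-CSF, GM-CSF, G-CSF, IL-3, IL-6 and IFN-γ. They were chosen by name, by a rule that uses no measured value but was set with earlier results of these data known, and make up 10 of the 16440 genes of the deposited table: Csf1r, Csf2ra, Csf2rb, Csf2rb2, Csf3r, Il3ra, Il6ra, Il6st, Ifngr1 and Ifngr2. Each was read in 6 RNA-seq libraries of sorted mouse bone marrow (BM) cells on the FVB N/J strain, 3 from normal myeloid progenitors (MPs) and 3 from c-Kit+ acute promyelocytic leukemia (APL) progenitors. Normal MPs carried the sorting phenotype Lin-Sca-1-c-Kit+, a mixed gate that holds granulocytic, monocytic, erythroid and megakaryocytic precursors. The APL cells derive from mice with a PML/RARα transgene under the hMRP8 promoter, which is active in myeloid cells. They had been labeled with GFP by a retroviral vector, expanded by transplantation into syngeneic mice and sorted for c-Kit. No drug treatment is given for these libraries, ages are not given for the mice behind these libraries, and the libraries of a group are called biological replicates without saying whether each came from its own mouse, so p-values measure the spread between these libraries, which may in part be technical.

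Most of these receptors work as assemblies of a ligand-binding chain and a shared signaling chain. The GM-CSF receptor alpha chain (Csf2ra) and the IL-3 receptor alpha chain (Il3ra) both signal through the common beta chain Csf2rb, which also serves IL-5, whereas the mouse carries an additional beta chain, Csf2rb2, that serves IL-3 alone. Il6ra binds IL-6 and hands it to gp130, encoded by Il6st, which is shared with other cytokines of the IL-6 family. Ifngr1 binds IFN-γ and Ifngr2 is its partner. The G-CSF receptor Csf3r acts as a pair of like chains, and Csf1r, the M-CSF receptor, is a receptor tyrosine kinase of the monocytic lineage. Apart from Csf1r, these chains lack a kinase of their own and rely on JAK kinases and STAT factors.

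In c-Kit+ APL progenitors the GM-CSF and IL-3 receptor chains and Csf3r were upregulated, Csf1r and Il6st were downregulated, and Il6ra, Ifngr1 and Ifngr2 were not called in either direction. All 10 genes passed the filter on low values. With limma at an adjusted p under 0.05 and a fold change over 1.5, 5 of the 10 were higher, against 21.7% of all genes tested, and 2 were lower, against 24.4%. In total 7 of 10 were called, against 46.1% of all genes tested. For 8 of the 10 genes the ranges of MP and APL libraries were separate, against 70.9% of all genes tested, and 8 of 10 had an adjusted p under 0.05 at any fold change, against 67.0%. The median log2 fold change of the 10 was 0.72, and that of all 14595 genes tested was −0.10. Values are given below as scaled fragments, the fragments per gene that the authors estimated and multiplied by a factor of each library. They can be compared between libraries for a gene, but not between genes of unequal length, for which FPKM is used.

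**Figure D1:**
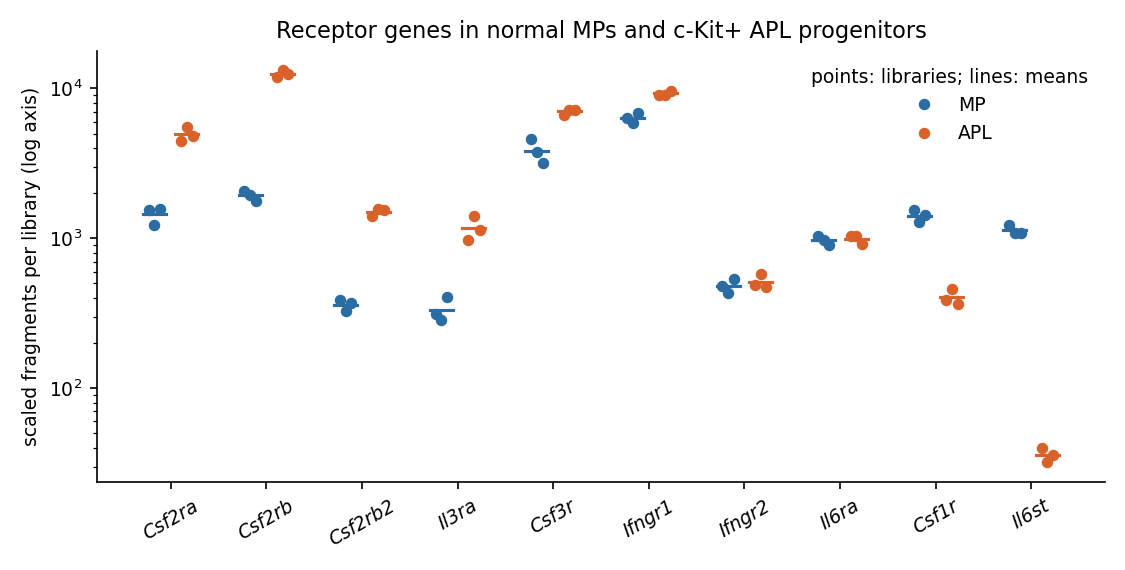
Scaled fragments of each receptor gene (vertical log axis) in the 3 MP libraries (blue) and the 3 APL libraries (orange), with points for libraries and short lines for group means. The APL points of Csf2rb lie between 11930 and 13195, above all MP points, whereas those of Il6st lie between 32.1 and 40.1, below all MP points.

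The upstream stretches of 5 called genes with a RefSeq promoter entry are shown here because a set of transcription factors known to bind myeloid receptor genes was also measured (described below). RefSeq promoters on GRCm38.p6 were matched for 8 of the 10 genes, but not for Csf2rb or Csf1r. Motifs were searched on both strands from 250 bases before to 50 bases after the RefSeq start. They were GAGGAA, the core bound by PU.1, TTNNGNAA, the core bound by C/EBP factors, TTCNNNGAA, a STAT site, and TGTGGT, the core bound by RUNX factors. Letters in capitals mark a match to any of these on either strand, and the last base printed lies next to the start.
Csf2ra (chr19:61228419-61228668, minus strand): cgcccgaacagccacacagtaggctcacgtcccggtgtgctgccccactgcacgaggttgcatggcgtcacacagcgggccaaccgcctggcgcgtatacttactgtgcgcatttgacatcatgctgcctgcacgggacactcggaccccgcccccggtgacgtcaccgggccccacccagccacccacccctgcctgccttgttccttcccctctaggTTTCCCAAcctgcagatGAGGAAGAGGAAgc
Csf2rb2 (chr15:78305722-78305971, minus strand): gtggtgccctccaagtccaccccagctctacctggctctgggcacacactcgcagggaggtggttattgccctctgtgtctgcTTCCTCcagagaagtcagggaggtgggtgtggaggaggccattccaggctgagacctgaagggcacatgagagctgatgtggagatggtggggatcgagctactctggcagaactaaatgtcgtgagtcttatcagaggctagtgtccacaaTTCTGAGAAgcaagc
Il3ra (chr14:14346245-14346494, plus strand): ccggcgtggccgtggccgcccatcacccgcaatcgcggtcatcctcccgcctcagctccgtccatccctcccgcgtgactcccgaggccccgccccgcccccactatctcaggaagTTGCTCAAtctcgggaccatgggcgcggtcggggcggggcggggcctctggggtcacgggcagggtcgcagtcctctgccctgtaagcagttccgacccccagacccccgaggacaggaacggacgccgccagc
Csf3r (chr4:126024409-126024658, plus strand): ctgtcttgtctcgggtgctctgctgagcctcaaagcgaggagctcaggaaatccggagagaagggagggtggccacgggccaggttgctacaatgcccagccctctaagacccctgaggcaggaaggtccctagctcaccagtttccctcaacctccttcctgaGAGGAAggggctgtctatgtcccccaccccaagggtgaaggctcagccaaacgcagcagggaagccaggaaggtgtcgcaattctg
Il6st (chr13:112463820-112464069, plus strand): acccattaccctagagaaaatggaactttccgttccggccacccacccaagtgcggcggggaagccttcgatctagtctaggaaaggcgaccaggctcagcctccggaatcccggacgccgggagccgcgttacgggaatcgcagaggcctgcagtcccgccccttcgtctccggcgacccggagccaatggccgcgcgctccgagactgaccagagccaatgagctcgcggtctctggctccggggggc
The Csf2ra stretch holds GAGGAA in tandem, with first bases 14 and 8 bases before the start, and a C/EBP letter match 31 bases before it. Csf3r holds GAGGAA 86 bases before the start and Il3ra a C/EBP letter match 134 bases before it. Csf2rb2 holds GAGGAA on the opposite strand 167 bases before the start and again 30 bases after it, C/EBP letter matches 9 and 30 bases after it, and the only STAT letter match among the 8, 15 bases before it. The match after the start at 30 bases overlaps between the PU.1 and C/EBP motifs. Il6st holds none of the 4 motifs in this window. Matches were not confined to called genes. Il6ra, not called and not printed, holds GAGGAA on the opposite strand 70 bases before the start. It also holds C/EBP letter matches 116 and 70 bases before the start. Ifngr1 and Ifngr2, also not called, hold none of the motifs. Over the 8 genes, GAGGAA and TTNNGNAA were each found in 4, against 28.3% and 40.7% of the 32851 RefSeq promoters searched, TTCNNNGAA in 1, against 8.30%, and TGTGGT in 0, against 16.8%. These are matches of letters and do not show binding.

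Csf2rb, the common beta chain, showed the largest increase among the 10 genes. On GRCm38 this gene (identifier 12983) spans 78325990 to 78351001 of chromosome 15. In replicate order, as throughout, it had 2065, 1957 and 1777 scaled fragments in the MP libraries and 11930, 13195 and 12482 in the APL libraries. All APL libraries were above all MP libraries, with a spread of 5.06% (coefficient of variation) in APL and 7.53% in MP. The mean went from 1933 ± 146 to 12536 ± 634 scaled fragments (mean and SD of 3 libraries). This was a log2 fold change of 2.70 ± 0.08 (SE), or 6.49-fold (limma, Benjamini-Hochberg adjusted p = 2.3e-08). Only 4.41% of genes tested had a larger increase. Permuting the 6 libraries (exact permutation test, two-sided) gave p = 0.1, the smallest p that 3 against 3 allow, and gave the same for each receptor gene whose groups did not overlap.

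Csf2rb2, the IL-3-specific beta chain, lies beside Csf2rb on chromosome 15 from 78282510 to 78305603. It had 385, 329 and 368 scaled fragments in the MP libraries and 1402, 1567 and 1550 in the APL libraries. The groups were well apart, and the log2 fold change was 2.06 ± 0.09 (SE), or 4.17-fold (limma, adjusted p = 1.8e-07). Chromosome 15 as a whole stood higher in APL libraries, with a median log2 fold change of 0.46 over its 563 genes tested. Csf2rb exceeded that median by 2.24, and Csf2rb2, at 2.06, also lay above it. These neighbours are close paralogs: 18.8% of the 50-base words of the longest Csf2rb transcript and 19.4% of those of Csf2rb2 occurred in transcripts of other genes (GENCODE M1, an earlier build), for the most part in each other, so fragments may have been divided between them. With both summed as a single gene, the log2 fold change was 2.61.

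The GM-CSF- and IL-3-binding alpha chains, Csf2ra and Il3ra, rose as well. Csf2ra (identifier 12982, chromosome 19, 61224402 to 61228418) had 1556, 1220 and 1576 scaled fragments in the MP libraries and 4425, 5565 and 4816 in the APL libraries. Its lowest APL library lay far above its highest MP library, and the log2 fold change was 1.77 ± 0.12 (SE), or 3.41-fold (limma, adjusted p = 2.2e-06). Il3ra (identifier 16188, chromosome 14, 14346495 to 14355490) had 312, 286 and 407 scaled fragments in the MP libraries and 979, 1409 and 1138 in the APL libraries. It was the most variable of the 10 between libraries of a group, with coefficients of variation of 19.0% in MP and 18.5% in APL, yet the groups did not overlap. For Il3ra the log2 fold change was 1.81 ± 0.16 (SE), or 3.50-fold (limma, adjusted p = 1.4e-05). The 4 GM-CSF and IL-3 receptor chains together held 27.1% ± 0.697 of the summed FPKM of the 10 receptor genes among the MP libraries and 53.3% ± 2.25 among the APL libraries (SD, n = 3 each, exact permutation p = 0.1). Because all 4 chains were called higher, this share mostly restates their increases.

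Csf3r, the receptor of the granulocytic growth factor G-CSF, showed a smaller increase. This gene (identifier 12986, chromosome 4, 126024659 to 126044975) had 4598, 3744 and 3158 scaled fragments in the MP libraries and 6683, 7208 and 7200 in the APL libraries. The MP libraries were spread more widely (18.9%) than the APL libraries (4.28%), but stayed below them. The log2 fold change was 0.89 ± 0.13 (SE), or 1.85-fold (limma, adjusted p = 0.00023), and 17.0% of genes tested had a larger increase. At a fold change threshold of 2 it was no longer called, and the other 4 upregulated genes were.

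Il6st, which encodes gp130, showed the largest decrease. The gene (identifier 16195) lies on chromosome 13 from 112464070 to 112506860. It had 1218, 1080 and 1087 scaled fragments in the MP libraries, but 40.1, 32.1 and 35.8 in the APL libraries. The APL libraries retained a low level above the limit of 3 fragments, which came to at most 3.7 scaled fragments in a library. The mean fell from 1128 ± 78.2 to 36.0 ± 3.995 scaled fragments (mean and SD of 3 libraries). This was a log2 fold change of −4.94 ± 0.13 (SE), or 30.6-fold lower (limma, adjusted p = 1.5e-08). A larger decrease was found for 3.24% of all genes in the test. On the log2(FPKM + 1) scale, which compresses values near and below 1 FPKM, the log2 fold change was −2.67.

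Il6ra, the IL-6-binding partner of gp130, did not share this decrease. It (identifier 16194, chromosome 3, 89869324 to 89913162) had 1036, 981 and 897 scaled fragments in the MP libraries and 1029, 1034 and 918 in the APL libraries. The groups overlapped. The log2 fold change was 0.03 with a 95% interval from −0.16 to 0.23 (limma, adjusted p = 0.75), and it took the opposite sign when libraries were scaled to the same total (−0.10) or without MP replicate 3 (−0.02). Changes below 0.892-fold or above 1.17-fold lay outside the interval.

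Csf1r, the M-CSF receptor and a marker of monocytic commitment, was downregulated. The gene (identifier 12978) lies on chromosome 18 from 61105572 to 61131139. It had 1533, 1284 and 1429 scaled fragments in the MP libraries and 390, 458 and 367 in the APL libraries. The groups did not overlap, and the mean went from 1415 ± 125 to 405 ± 47.3 scaled fragments (SD, n = 3 each). The log2 fold change was −1.81 ± 0.11 (SE), or 3.50-fold lower (limma, adjusted p = 1.0e-06).

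Neither IFN-γ receptor chain was called. Ifngr1 (identifier 15979, chromosome 10, 19591958 to 19610225) had 6322, 5881 and 6817 scaled fragments in the MP libraries and 9078, 9058 and 9637 in the APL libraries. These ranges did not overlap, and the log2 fold change of 0.55 (standard error 0.08, limma adjusted p = 0.00027) corresponds to 1.46-fold, which is under the fold change threshold of 1.5. It passed that threshold without MP replicate 3, with a log2 fold change of 0.60, and with median-of-ratios scaling, with 0.61. Ifngr2 (identifier 15980, chromosome 16, 91547094 to 91564007) had 478, 432 and 536 scaled fragments in the MP libraries and 489, 582 and 474 in the APL libraries, with overlapping groups. Its log2 fold change was 0.09 with a 95% interval from −0.18 to 0.37 (limma, adjusted p = 0.50), and −0.04 with libraries scaled to the same total.

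**Figure D2:**
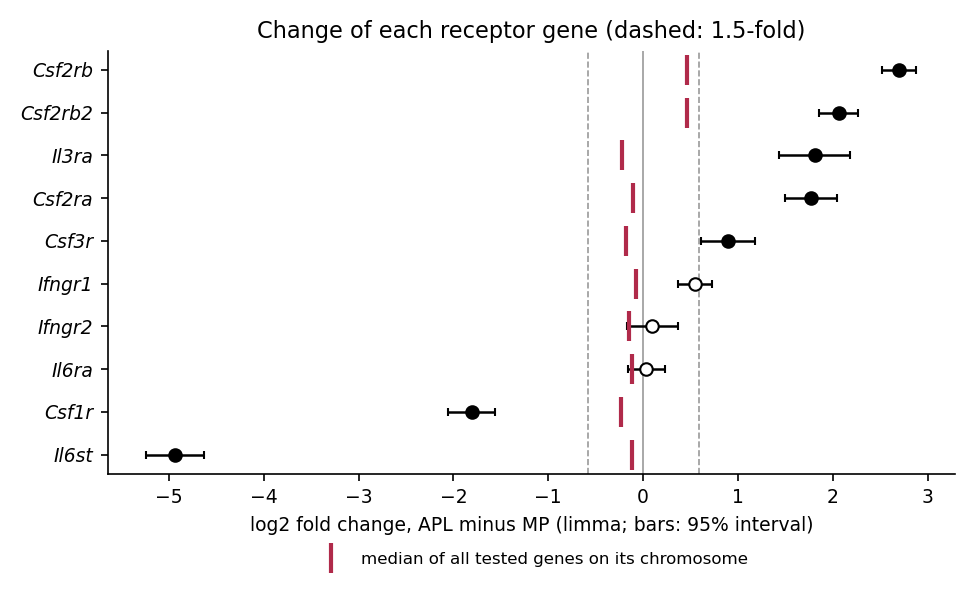
Log2 fold change of each receptor gene in APL against MP libraries (horizontal axis), with bars for the 95% interval from limma, filled points for called genes, dashed lines at 1.5-fold and red ticks for the median of all tested genes on the gene's chromosome. Csf2rb at 2.70 and Csf2rb2 at 2.06 lie to the right of the median of chromosome 15 (0.46), and Il6st at −4.94 lies farthest to the left.

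Other values moved with these receptor changes. Because these are bulk samples of a sorted gate, fewer cells of a type and less RNA per cell cannot be told apart. The counts of called markers below stand against 21.7% higher and 24.4% lower of all genes tested. Each sum is weighted toward its most abundant genes. The 8 erythroid markers listed summed to between 1580 and 2048 FPKM in MP libraries and between 44.0 and 52.9 FPKM in APL libraries, and all 7 that were tested were lower. Gata1, a factor of erythroid and megakaryocytic cells, went from 2862 ± 412 to 18.3 ± 11.3 scaled fragments. The 6 megakaryocyte markers summed to between 62.1 and 95.4 FPKM in MP and between 3.54 and 5.30 FPKM in APL, with 4 lower and 0 higher. Primary granule genes, of which 4 of 5 were higher and 0 lower, summed to between 8770 and 9920 FPKM in MP and between 24186 and 28629 FPKM in APL. Of 7 markers of mature neutrophils 3 were higher and 1 lower, and of 8 monocyte and macrophage markers 4 were higher and 4 lower. Their sums went from between 11562 and 17823 FPKM to between 45704 and 59571 FPKM and from between 101 and 120 FPKM to between 290 and 315 FPKM. Dendritic cell markers (0 of 6 higher, 4 lower) summed to between 19.6 and 28.4 FPKM in MP and between 0.873 and 0.990 FPKM in APL. Sums were also lower for stem cell markers (1 of 6 higher, 5 lower), from between 17.3 and 24.3 FPKM to between 2.43 and 3.09 FPKM, for mast cell and basophil markers (1 of 6 higher, 4 lower), from between 83.4 and 110 FPKM to between 42.9 and 51.0 FPKM, and for eosinophil markers (1 of 5 higher, 3 lower), from between 145 and 261 FPKM to between 47.6 and 64.7 FPKM. B cell markers (1 of 5 tested higher, 3 lower) summed to at most 15.5 FPKM and T and NK cell markers (0 of 4 tested higher, 2 lower) to at most 4.32 FPKM in any library. No listed marker that was in the table stood at 0 in all libraries. The part of these cell type markers in the receptor changes was not tested. Kit, the gene of the sorting marker c-Kit, was present in all libraries, with 10668 ± 272 scaled fragments in MP and 5929 ± 132 in APL (log2 fold change −0.85, limma adjusted p = 5.9e-06).

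Levels of different receptors were then set in order per length, in FPKM. In normal MPs Ifngr1 stood highest at 109 ± 7.98 FPKM (SD, n = 3), followed by Csf2ra at 38.3 ± 4.72 and Csf3r at 32.8 ± 6.25, whose ranges over libraries overlapped. Csf2rb at 14.6 ± 1.24, Csf1r at 12.6 ± 1.06, Il3ra at 11.4 ± 1.67, Il6ra at 10.4 ± 0.760 and Ifngr2 at 8.16 to 9.96 FPKM followed, each overlapping with its neighbour in this order. Il6st at 6.75 ± 0.478 and Csf2rb2 at 2.92 ± 0.215 FPKM stood apart at the lower end.

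In c-Kit+ APL progenitors the order was different. Ifngr1 was still highest at 159 ± 5.50 FPKM, Csf2ra came next at 132 ± 15.2 FPKM, and Csf2rb rose to the third place at 94.1 ± 3.90 FPKM, ahead of Csf3r at 60.5 ± 2.17 and Il3ra at 40.6 ± 7.51 FPKM. Csf2rb2, lowest in MPs, stood sixth at 12.2 ± 0.670 FPKM. Il6ra at 10.7 ± 0.758 and Ifngr2 at 9.64 ± 1.18 FPKM overlapped. Csf1r at 3.61 ± 0.397 and Il6st at 0.216 ± 0.0252 FPKM were at the lower end, and all neighbours other than Il6ra and Ifngr2 had separate ranges. The summed FPKM of the 10 genes went from 248 ± 15.7 to 523 ± 29.6 (SD, n = 3 each, exact permutation p = 0.1).

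**Figure D3:**
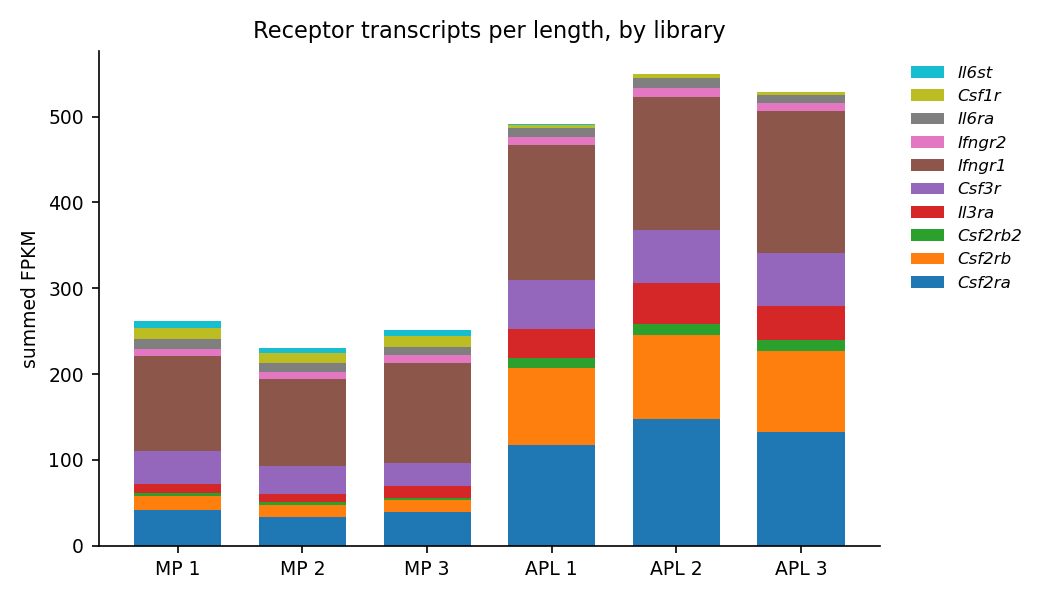
Summed FPKM of the 10 receptor genes (vertical axis) in each library, with a colored segment for each gene. The sums lie between 231 and 261 FPKM in the MP libraries and between 491 and 549 FPKM in the APL libraries, where Csf2ra and Csf2rb take wider segments.

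Whether the chains of a receptor moved in step was asked with the ratio of their FPKM values within each library. There were 5 such pairs of genes, and for all 5 the ratios of the groups did not overlap. The exact permutation p was 0.1 each and 0.1 after adjustment over the 5, the smallest that this design allows. Of single genes tested 70.9% had separate groups, and the share over other pairs of genes was not computed. The ratios to Csf2rb share a denominator and are not independent of each other. The Il6ra to Il6st ratio was 1.52, 1.65 and 1.48 in the MP libraries and 46.1, 58.5 and 46.4 in the APL libraries. IL-6-binding chain transcripts thus went from near parity with gp130 transcripts to a large excess, a 32.3-fold change. Because Il6ra itself was not called, this ratio mostly restates the decrease of Il6st. The opposite held for the common beta chain, which gained on its partners. The Csf2ra to Csf2rb ratio was 2.69, 2.22 and 3.02 in MP and 1.30, 1.51 and 1.40 in APL, a 1.87-fold decrease. The Il3ra to Csf2rb ratio was 0.696, 0.676 and 1.01 in MP and 0.373, 0.496 and 0.421 in APL, a 1.82-fold decrease, with MP library 3 above the others. The Csf2rb2 to Csf2rb ratio went from 0.202 ± 0.0213 to 0.129 ± 0.00352. The Ifngr1 to Ifngr2 ratio went from 12.1 ± 0.360 to 16.7 ± 2.42, a 1.37-fold increase (SD, n = 3 each).

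**Figure D4:**
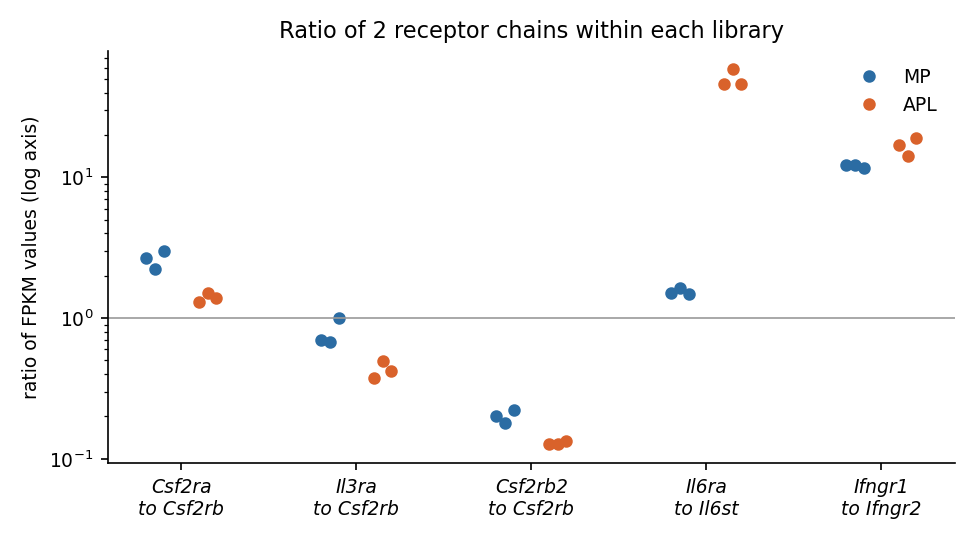
Ratio of the FPKM values of 2 receptor chains within a library (vertical log axis, grey line at 1) for 5 pairs, with points for the 3 MP libraries (blue) and the 3 APL libraries (orange). The Il6ra to Il6st ratio lies between 1.48 and 1.65 in MP and between 46.1 and 58.5 in APL libraries, and the 3 ratios to Csf2rb are lower in APL.

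Further chains that pair with gp130 or the common beta chain were read alongside. Of 6 listed, 4 were tested, and Osmr and Cntfr were not analysed here. Among the 4, 3 were lower and 0 higher, against 24.4% lower and 21.7% higher of all genes tested, with a median log2 fold change of −2.04 (−1.94 with Lifr at its bound). Il27ra, the IL-27 receptor partner of gp130, had 328, 311 and 366 scaled fragments in MP and 67.2, 75.4 and 70.4 in APL libraries, a log2 fold change of −2.22 (limma, adjusted p = 1.1e-06). Il5ra, the IL-5-binding partner of the common beta chain, had 21.5, 15.2 and 17.1 scaled fragments in MP and 3.53, 2.60 and 4.94 in APL libraries (−2.03), and was thus scarce in both groups. Lifr, the LIF receptor chain, did not exceed 3 unscaled fragments in any APL library and was at least 3.62-fold lower when set against that limit. On the log2(FPKM + 1) scale Il27ra was called at −1.47, Il5ra was not called at −0.17, and Lifr did not pass the filter on low values. Il11ra1, the IL-11-binding partner of gp130, had 632 ± 87.4 in MP and 845 ± 54.4 scaled fragments in APL, a log2 fold change of 0.43 that stayed below the fold change threshold (limma, adjusted p = 0.0079).

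Among the ligands, Il3 transcripts appeared in the APL libraries. Il3, the gene of IL-3 and thus of the ligand of Il3ra, Csf2rb and Csf2rb2, was at 0 in all 3 MP libraries and had 135, 119 and 126 scaled fragments in the APL libraries. Set against a limit of 3 fragments per MP library, it was at least 45.4-fold higher in APL. The limma adjusted p = 6.7e-08 does not belong to this bound but to the fitted log2 fold change of 6.99, which depends on the pseudocount. The MP values, all at 0, added no spread to that test, so its p cannot be read as a measure of certainty. Osm, the gene of oncostatin M, a gp130 cytokine, had 246, 202 and 240 scaled fragments in MP and 459, 392 and 671 in APL libraries, a log2 fold change of 1.11 (limma, adjusted p = 0.00081). Csf1, the gene of M-CSF, had 134 ± 25.6 scaled fragments in MP and 88.4 ± 17.5 in APL (−0.60, limma adjusted p = 0.028), and its call was not stable. It was lost without MP replicate 1 (−0.45), APL replicate 1 (−0.50) or APL replicate 3 (−0.55), and with a pseudocount of 5 (−0.58), quantile normalization (−0.36), median-of-ratios scaling (−0.54) or FPKM (−0.31). Of 15 ligand genes listed, 10 were tested, with 2 higher (Il3 and Osm) and 5 lower (Csf1, Il6, Il11, Lif and Clcf1), against 21.7% and 24.4% of all genes tested, and the median log2 fold change was −0.64 (the same with Il3, Il6, Lif and Clcf1 at their bounds). Apart from Csf1 the lower genes had a mean of at most 30.4 scaled fragments in MP, and the count of lower genes was 2 without MP replicate 1 and 3 without MP replicate 3, APL replicate 1 or APL replicate 3. Il3 had too few libraries with a value to be tested when any APL library was left out, which left 1 higher. The balance also turned with the scaling, to 4 higher and 2 lower with quantile normalization. The number of lower genes was 3 with median-of-ratios scaling, 2 with either stricter filter on low values and 1 with FPKM. Csf2, Csf3 and Ifng were not analysed here.

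Signal transducers below the receptors moved in both directions. Of 28 tested, 7 were higher and 4 lower (39.3% called, against 46.1% of all genes tested), with a median log2 fold change of 0.05. With libraries scaled to the same total 4 were higher. Lyn, a Src family kinase that associates with the common beta chain, went from 1623 ± 90.7 to 3618 ± 158 scaled fragments (1.16, limma adjusted p = 1.2e-06). Stat5a, a transcription factor activated by GM-CSF and IL-3, went from 3485 ± 425 to 1490 ± 113 scaled fragments (−1.22, limma adjusted p = 7.1e-06). Its close relative Stat5b, with −0.92, and Jak2, the kinase bound to the common beta chain, with −0.66, were also lower.

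Of 23 negative regulators of these pathways tested, 6 were higher and 3 lower (39.1% called, against 46.1% of all genes tested), with a median log2 fold change of 0.16. Of the 8 genes of the Cish and Socs family of inhibitors, Cish, Socs1, Socs2 and Socs3 rose, Socs6 fell (−0.80), and Socs4 (0.08), Socs5 (0.16) and Socs7 (−0.45) were not called. Cish, a feedback inhibitor whose transcription follows STAT5, had 100, 161 and 154 scaled fragments in MP and 1004, 1246 and 1043 in APL libraries, a log2 fold change of 3.00 ± 0.18 (SE) (limma, adjusted p = 1.1e-06). Socs1, an inhibitor of JAK kinases, had 18.7, 17.1 and 26.2 in MP and 135, 178 and 149 in APL libraries (2.85, limma adjusted p = 5.5e-06). Socs2 and Socs3, of the same inhibitor family, had log2 fold changes of 2.12 and 2.03. Ptpn1 and Ptpn6, phosphatases that act on JAK kinases or receptors, were the other higher genes. Usp18, an inhibitor of type I interferon signaling, went from 113 ± 13.7 to 16.9 ± 9.43 scaled fragments (−2.78), and Adam10, a protease that sheds cytokine receptors, was also lower.

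Genes that respond to these cytokines moved in both directions. Of 18 tested, 3 were higher and 8 lower (61.1% called, against 46.1% of all genes tested), with a median log2 fold change of −0.18. Cxcl10, a chemokine gene induced by interferons, had 14.8 ± 5.49 scaled fragments in MP and 644 ± 33.1 in APL (5.42, limma adjusted p = 3.2e-07). Gbp3, an interferon-induced GTPase gene, and Bcl2l1, an anti-apoptotic gene, were the other higher genes, with log2 fold changes of 2.15 and 0.67. In contrast Irf1, another interferon-responsive gene, had −0.83. Ccnd2, a D-type cyclin gene that follows STAT5, went from 2469 ± 236 to 14.4 ± 2.48 scaled fragments (−7.33, limma adjusted p = 5.6e-09), and Ccnd1 had −2.96. Ccnd3 was not called, at 0.53. The other lower genes were Fos (−0.79), Icam1 (−0.93), Egr1 (−1.40), Bcl3 (−2.92) and Ciita. Ciita did not exceed 3 unscaled fragments in any APL library and was at least 7.01-fold lower when set against that limit. Without MP replicate 3 or without APL replicate 1 the number of higher genes was 5, and with median-of-ratios scaling it was 6.

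Of the transcription factors known to bind myeloid receptor genes, 6 of 10 were higher and 2 lower (80.0% called, against 46.1% of all genes tested), with a median log2 fold change of 1.23. PU.1, listed in the table as Sfpi1, had 2275, 1925 and 2641 scaled fragments in MP and 5634, 6998 and 6250 in APL libraries (log2 fold change 1.47, limma adjusted p = 8.7e-06). Cebpa and Cebpb, of the C/EBP family, had 1.34 and 1.96, and Gfi1, Ets2 and Fli1 had 1.65, 1.62 and 1.11. Runx1 had 0.52, under the fold change threshold, and Cebpe had 0.24 (limma, adjusted p = 0.21). Irf8, a factor of the monocytic lineage, in which Csf1r is also expressed, had −4.91 and Myb, a factor of immature progenitors, −0.86.

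**Figure D5:**
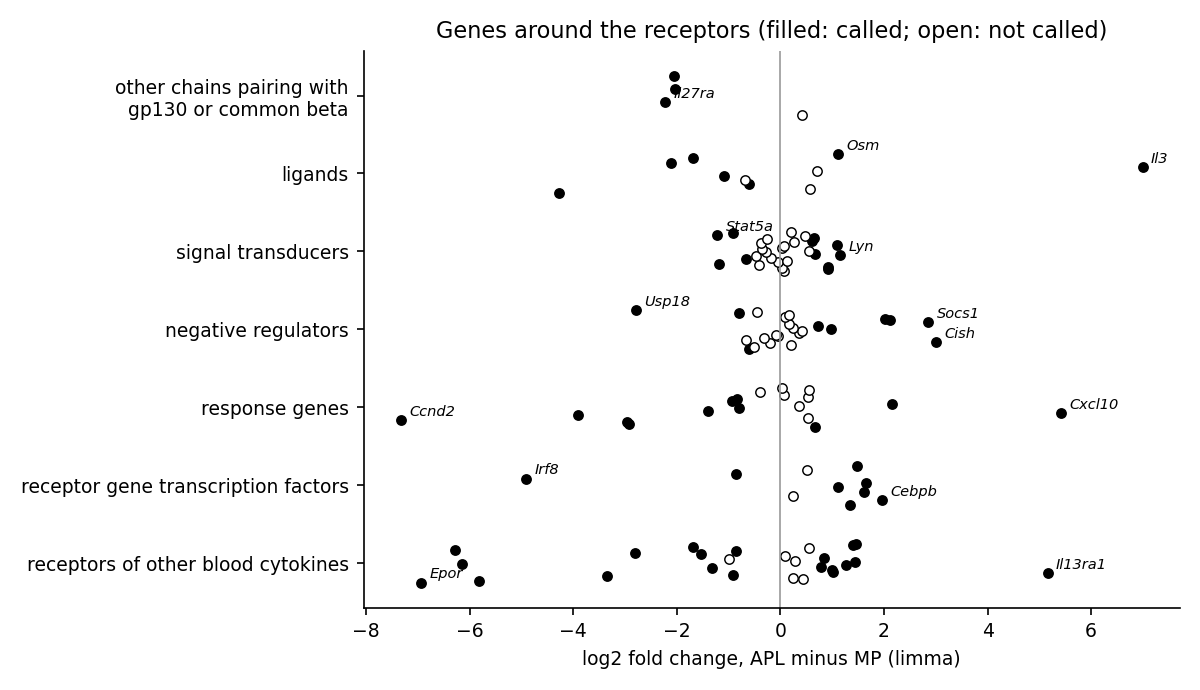
Log2 fold change in APL against MP libraries (horizontal axis) of the tested genes of each list (rows), with filled points for called genes and open points for the others. Il3, which was at 0 in the MP libraries so that its place depends on the pseudocount, lies farthest to the right, and Cish and Socs1 lie at 3.00 and 2.85. The places of genes at the limit of 3 fragments in APL, among them Clcf1, Ciita, Il9r, Il6 and Lifr, depend on the pseudocount as well.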

How the data were processed

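Each of the 16440 genes has, for each of the 6 libraries, an FPKM and a fragment value. FPKM was computed by the authors from transcript length and mapped fragments. The deposited fragment values are a signal: estimated fragments scaled by a factor of each library, with whole multiples of a step (tolerance 0.01) for 87.4% to 88.5% of nonzero values below 100 fragments, so no count model was used. The submitters' processing notes name CASAVA 1.8, TopHat2 2.0.6 and mm10, whereas the paper's methods name STAR, mm9, HTSeq-count and DESeq2. Of the gene identifiers, 16361 are in RefSeq GRCm38. The table start was 1 below the RefSeq start for 7054 of these and equal to it for 585, so starts were read as counted from 0 and are given here counted from 1. Divided by the step, totals were 20608715 to 28382457 fragments per library, and at most 3 fragments were treated as not distinguishable from absence.

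limma 3.58.1 in R 4.3.3 (lmFit, eBayes with a trend) was fitted to log2(scaled fragments + 1) of the 14595 genes with at least 1 in at least 3 libraries, with Benjamini-Hochberg adjustment over all of them. Fold changes on this scale understate those of low genes. Ratios of chains, values of single receptor genes, and the share and sum of FPKM were compared with two-sided exact permutation tests (scipy 1.17.1). Of these, only the tests of ratios had been planned.

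The genes and lists were chosen with earlier results of these data known. Beyond the receptor genes, those named are Kit, Gata1, the gp130 and beta chain partners, the listed transcription factors, and up to 3 genes per list with the largest change among called genes with a mean of at least 50 scaled fragments. Other named list genes (among them Socs2 to Socs7, Stat5b, Jak2, Gbp3 and Il13ra1) were chosen after their values were seen. Same-numbered libraries were checked for pairing. Protein sequences were left aside. Some genes named by the rule are not reported here.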

Additional observations from a re-analysis of the deposited data

How the results depend on the processing

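All 7 called receptor genes stayed called in the direction given, whichever alternative was applied to single genes: other filters and pseudocounts, quantile, same-total and median-of-ratios scaling, FPKM, the replicate block and each library left out in turn. Over the 10 genes, 156 of 161 values kept direction and call, 2 passed the threshold anew (Ifngr1) and 3 were reversed, all of genes not called: Il6ra was −0.097 with the same total and −0.023 without MP replicate 3 (−0.023 to 0.089 over the libraries left out), and Ifngr2 was −0.036 with the same total. Of 31 other genes named by the rule, 29 kept theirs under each alternative in which they were tested. The exceptions were Csf1, which lost its call under 7 alternatives, and Il5ra (−0.17 with FPKM). Il3 was not tested with a value required in all libraries or with any APL library left out. Lifr was not tested with FPKM or with the filter at 10 scaled fragments. Genes chosen after their values were seen, such as Stat5b, Jak2 and Gbp3, are outside this count. Scaling to the same total moved the median of all genes from −0.10 to −0.23. Over all genes, 2205 were lower with FPKM against 3558, and the cause was not tested. With the replicate block 3164 genes were higher and 3589 lower, against 3167 and 3558, and it changed no call of a receptor gene. Same-numbered libraries deviated with correlations from −0.133 to 0.261, so the numbers were not taken to pair them, and not every library correlated best with its own number. The sum of Csf2rb and Csf2rb2 was added after the data were seen. With 3 libraries a group, exact tests cannot go below p = 0.1, and genes of few fragments are imprecise.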

Other observations

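Receptors of other blood cytokines moved in both directions. Of 26 tested, 9 were higher and 11 lower in c-Kit+ APL progenitors (76.9% called, against 46.1% of all genes tested), with a median log2 fold change of 0.17. Il9r, counted as lower, was at 0 in all APL libraries, and its decrease was at least 2.07-fold against the limit of 3 fragments. Among those that fell were Epor, the erythropoietin receptor, from 1347 ± 270 scaled fragments to between 8.25 and 12.3 (−6.93), and Il1rl1, the IL-33 receptor of mast cells, from 1006 ± 119 to 13.3 ± 3.50 (−6.15), each with SD over n = 3 libraries. The summed erythroid and mast cell markers given above were also lower in APL libraries, and their part in these decreases was not tested. Epor is itself among the erythroid markers summed and counted there, so that sum is not independent of it. Il13ra1, an IL-13 and IL-4 receptor chain, had 10.3, 4.76 and 9.92 scaled fragments in the MP libraries and 308, 325 and 321 in the APL libraries. The groups were far apart, with a log2 fold change of 5.16 ± 0.28 (SE) and a Benjamini-Hochberg adjusted p = 5.4e-07 in limma.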
